A study of Mus musculus with 8 samples.

Results

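Msx1, Msx2 and Dlx1 to Dlx6 are 8 homeobox genes of the mouse, and SMAD4 binding around them was examined in limb buds at 2 stages. The genes were picked by name, and all peaks whose centre lay within 100 kb of the 5′ end of one of them were taken (mouse build mm9, GENCODE vM1). They are 8 of the 22380 protein-coding genes of this annotation and lie at 5 loci, since Dlx genes are arranged in pairs. Within 100 kb they had 2 of the 2073 peaks of the E9.5 list (0.0965%) and 14 of the 6185 peaks of the E10.5 list (0.226%).

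All samples came from NMRI mouse embryos of genotype Smad4Flag, homozygous in the protocol (Smad4 3xF/3xF), with a 3xFLAG tag on the SMAD4 made from its own locus. Chromatin was immunoprecipitated with the M2 anti-FLAG antibody and sequenced (ChIP-seq), with 2 ChIP and 2 input samples per stage, 8 samples in all. The E9.5 samples, dated to E9.75 in the protocol, were forelimb buds with attached trunk from about 80 embryos per replicate. The E10.5 samples were fore- and hindlimb buds from about 100 embryos per replicate by the tissue label and the protocol, whereas another label gives every sample as forelimb bud. By the former, tissue and stage change together and cannot be told apart. No sample without the tag entered these lists, and the inputs served only as controls of the peak calling. The replicates of a stage had been combined into a single peak list before deposit, so each value below is 1 value per stage, without an SD and without a p-value. The depth behind the lists is unknown, and a region without a peak is therefore not shown to be unbound. The buds hold mesenchyme and ectoderm together, and binding in few cells cannot be told apart from weak binding in many. These samples hold no expression values, so the labelled tissue could not be checked against markers.

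MSX and DLX proteins are homeodomain transcription factors of related families. In the limb bud, Msx1 and Msx2 are expressed in the mesenchyme and the apical ectodermal ridge and are classical genes induced by BMP signals. BMP receptors phosphorylate SMAD1, SMAD5 and SMAD8, and these enter the nucleus and bind DNA together with SMAD4, often at GC-rich sites next to the letters GTCT. Dlx5 and Dlx6 are active in the apical ectodermal ridge, and loss of both causes a split of the hand and foot. Dlx1 and Dlx2 are best known from the forebrain and the branchial arches, and Dlx3 and Dlx4 from ectoderm and placenta. The Dlx genes of a pair point towards each other and share enhancers that lie between or around them.

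The short sequences printed first are those to which the results on binding sequences refer. The first lines show the mm9 matches to a GC-rich SMAD site, GGCGCC or GGAGCC, followed after 5 bases by GTCT, an arrangement known from BMP-responsive elements. They are all those in the 16 peaks, each printed 5′ to 3′ on the minus strand, with the GC-rich site and GTCT in capitals.
Msx2, chr13:53571733-53571762, 3.30 kb upstream of the gene, in the peaks of both stages: cggcccttGGCGCCcatttGTCTgcccgct
Msx1, chr5:38215006-38215035, in the intron of the gene, in the E10.5 peak: cgcgcgccGGCGCCggcttGTCTcgggcgt
Dlx2, chr2:71466960-71466989, 82.16 kb upstream of the gene, in the E9.5 peak: gtcctgctGGCGCCggaatGTCTgctgggc

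The next lines are shown because the middle of the Msx2 peak held several GC-rich sites close together. They are the 4 that fall in the central 300 bp at both stages, with the GC-rich site in capitals. The first is printed on the minus strand and the others on the plus strand.
Msx2, chr13:53571487-53571516: cccggcgcggctGGAGCCggtcacccggcg
Msx2, chr13:53571503-53571532: ccagccgcgccgGGCGCCccgcccccgctg
Msx2, chr13:53571548-53571577: gctgcccgcgccGGAGCCgcgttaattgct
Msx2, chr13:53571590-53571619: ctcagccttcgcGGAGCCaggacaacctcg

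The last lines are shown as contrasts from the Dlx loci, on the plus strand, with the searched letters in capitals. They are the GGCGCC in the central 300 bp of the peak over the 5′ end of Dlx6, the CAGACC near the centre of a peak upstream of Dlx4, and the palindrome GTCTAGAC, formed by a pair of SMAD boxes, in a peak within Itga3.
Dlx6, chr6:6813972-6814001: tcccgatcgcctGGCGCCtgcctgccggcc
Dlx4, chr11:95048368-95048397: tggacactctccCAGACCaagcatctgtat
Itga3 intron, 44.21 kb upstream of Dlx3, chr11:94937174-94937203: ggagcggtcgcGTCTAGACaggttctggcc

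To determine which of the genes had SMAD4 enrichment nearby at each stage, members with a peak were counted and set beside the same share of all protein-coding genes. At E9.5, Msx2 and Dlx2 had a peak within 100 kb, or 2 of 8 genes, where 20.5% of all protein-coding genes had one. At E10.5 all 8 genes had a peak within 100 kb, where 52.9% of all genes had one. Since members of a Dlx pair share peaks, the 8 genes stand for 5 loci, each of which had at least 1 peak at E10.5. Msx1, Dlx1, Dlx3, Dlx4, Dlx5 and Dlx6, or 6 of 8 genes, had an E10.5 peak without an E9.5 peak, and this held for 38.2% of all genes. Msx2 was the 1 gene of 8 with an E9.5 peak that overlapped an E10.5 peak, where 5.51% of all genes had such a peak. The E10.5 list is longer than the E9.5 list, and this length bears on the count. When only the best-scored E10.5 peaks were kept, as many as the E9.5 list holds, Msx1, Dlx5 and Dlx6 still had a peak, or 3 of 8 genes beside 28.0% of all genes. The E10.5 peak of Msx2 was not among these, so that 0 of 8 genes then had a shared peak, beside 3.57% of all genes.

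Closer to the genes the order was different. Within 5 kb of the 5′ end, only Msx2 had an E9.5 peak among the 8 genes, where 2.63% of all genes had one. At E10.5, Msx1, Msx2, Dlx5 and Dlx6 had a peak within 5 kb, or 4 of 8 genes beside 13.0% of all genes. Dlx1, Dlx2, Dlx3 and Dlx4 had none within 5 kb at either stage. The median protein-coding gene had the 5′ ends of 3 other genes within 100 kb, whereas Msx1 had 1, Msx2, Dlx1, Dlx2, Dlx4, Dlx5 and Dlx6 had 2, and Dlx3 had 3, partners of a pair included.

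**Figure D1:**
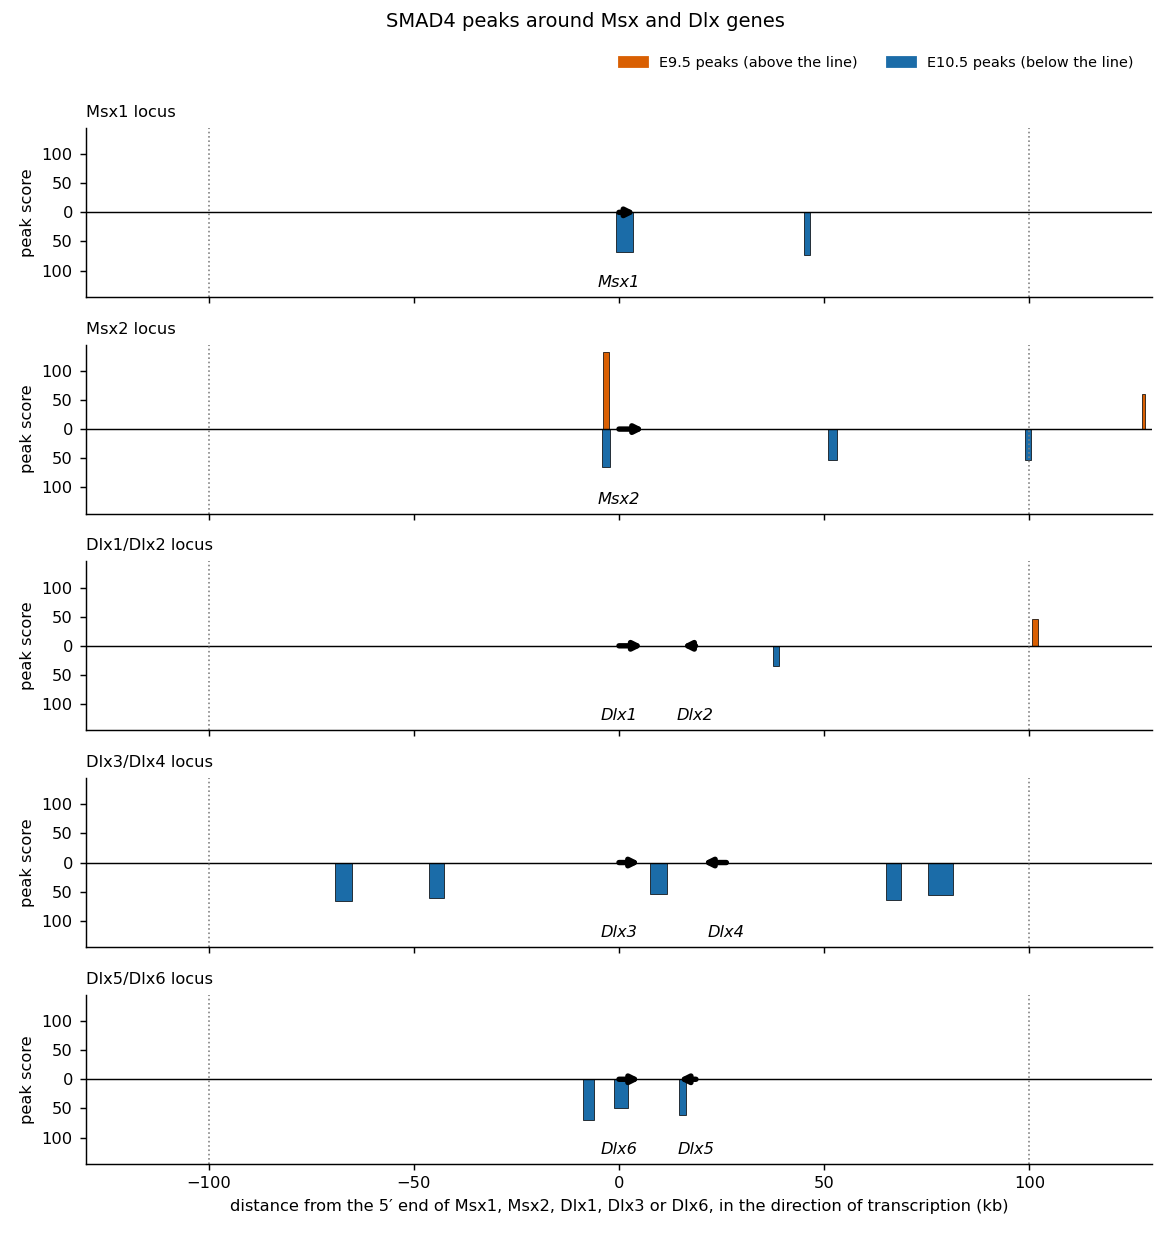
SMAD4 peaks at the 5 loci, with the distance from the 5′ end of the first gene in its direction of transcription in kb on the horizontal axis and the peak score on the vertical axis (E9.5 upwards in orange, E10.5 downwards in blue, both counted from 0). Arrows are the genes and dotted lines mark 100 kb to either side; within these lines, Msx2 is the 1 locus where peaks of both stages lie on top of each other.

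The distance to the nearest peak was then taken for each gene, with no fixed limit. At E9.5 the nearest peak centre lay 3.10 kb from Msx2, and 2.39% of protein-coding genes had one as near. It lay 82.7 kb from Dlx2 (17.6% of genes as near), 101 kb from Dlx1 (20.7%), 164 kb from Dlx4 (29.8%), 190 kb from Dlx3 (33.2%) and 211 kb from Msx1 (36.0%). With a limit of 250 kb in place of 100 kb, 6 of 8 genes had an E9.5 peak, beside 40.6% of all genes. Dlx6 and Dlx5 were farthest from any E9.5 peak, at 908 and 927 kb, and 76.5% and 76.8% of genes had one nearer or as near. The nearest E10.5 peak centre lay 0.562 kb from Dlx6, as near as in 7.21% of genes, 1.44 kb from Msx1 (10.2%), 3.17 kb from Dlx5 (11.9%) and 3.20 kb from Msx2 (11.9%). It lay 9.71 kb from Dlx3, 16.5 kb from Dlx4, 19.6 kb from Dlx2 and 38.2 kb from Dlx1, and for the latter 32.9% of genes had a peak as near.

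**Figure D2:**
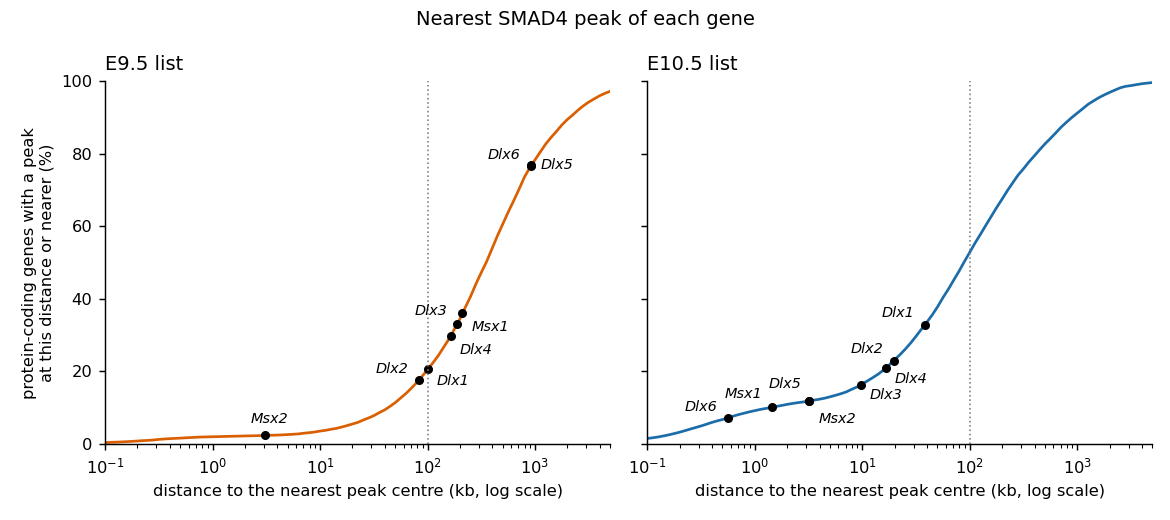
Distance from the 5′ end to the nearest peak centre in kb (log scale) and the share of 22380 protein-coding genes with a peak at that distance or nearer in percent, for each stage. Points are the 8 genes on the curve of all genes and the dotted line marks 100 kb; Msx2 lies at 3.10 kb at E9.5, far to the left of the other 7 genes, while all 8 lie left of the line at E10.5.

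Msx2 (ENSMUSG00000021469.7, chr13:53562250-53568443, minus strand) encodes a homeodomain repressor that responds to BMP in the limb bud and the skull. Its E9.5 peak, chr13:53570801-53572276, is 1476 bp wide, lies in intergenic sequence and reaches from 2358 to 3833 bp upstream of the 5′ end. Its score of 132 ranked 121 of 2073, so that 5.84% of the list scored as high or higher. The overlapping E10.5 peak, chr13:53570669-53572618, is 1950 bp wide and had a score of 64.7, which ranked 2411 of 6185 (39.0%). Peak scores were ranked within a list and their levels were not compared between stages. The E9.5 peak lay wholly inside the E10.5 peak, covered 75.7% of it, and the centres were 105 bp apart. The position was thus the same at both stages, and the rank was high in the E9.5 list and close to the middle in the E10.5 list.

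This pair was also set beside the other regions that had peaks at both stages. Of the 387 E9.5 peaks with an E10.5 partner, 24.5% scored at least as high as the Msx2 peak, and of their E10.5 partners 66.4% did. The lists differ in length and composition, so these positions are given side by side and not as a change between stages.

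Msx2 had 2 further peaks within 100 kb, both at E10.5 and both on the downstream side. The peak chr13:53515240-53517497 lay 52.07 kb downstream in intergenic sequence with a score of 53.6 (69.9% of the list at or above). The peak chr13:53468018-53469523 lay 99.67 kb downstream, just inside the 100 kb limit, in a coding exon of Sptlc1, which encodes a subunit of serine palmitoyltransferase. Its score of 52.3 was in the lower part of the list (75.2%), and Sptlc1 was its nearest gene, at 3.96 kb.

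Msx1 (ENSMUSG00000048450.9, chr5:38211724-38215822, minus strand), the relative of Msx2 with which it shares much of its function, had 2 E10.5 peaks within 100 kb and none at E9.5. The peak chr5:38212293-38216468 covered the 5′ end. It is 4176 bp wide, wider than all but 25.1% of the list, and spanned 3530 bp or 86.1% of the gene, all 909 coding bases, and 646 bp upstream. Its score of 67.6 placed it at 33.3% of the list. The second peak, chr5:38169336-38170753, lay 45.78 kb downstream of the 5′ end in intergenic sequence and had the highest score of the 14 E10.5 peaks at 72.4 (rank 1616, 26.1%). Cytl1, which encodes a secreted cytokine-like protein of cartilage, was its nearest gene at 43.29 kb, so the peak lay almost midway between the 5′ ends of both genes. The E10.5 peak nearest to the 5′ end thus lay over the gene body of Msx1 and upstream of that of Msx2.

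Dlx5 (chr6:6827805-6832085, minus strand) and Dlx6 (chr6:6813334-6818568, plus strand) are separated by 9.24 kb and had 3 peaks within 100 kb, all at E10.5. The peak chr6:6804584-6807268 lay 7.41 kb upstream of Dlx6 within Dlx6os1, a noncoding gene, with a score of 69.6 (30.2%). The peak chr6:6812204-6815588 covered the 5′ end of Dlx6, 1130 bp upstream of it and 2255 bp or 43.1% of the gene, with 72.1% of its 891 coding bases. Its score of 48.9 was among the lowest, with 87.6% of the list at or above. The peak chr6:6828063-6829760 lay entirely inside Dlx5, 3.17 kb downstream of its 5′ end, covered 39.7% of the gene and 59.1% of its 867 coding bases, and had a score of 61.5 (46.0%). All 3 peaks thus lay within or next to the pair, and the segment between both genes, where limb and forebrain enhancers of the pair are known, had no peak at either stage.

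No further E10.5 peak lay within 1 Mb of the pair. These 3 peaks equal the lower quartile of E10.5 peaks within 1 Mb over all protein-coding genes (median 7, upper quartile 13), and 31.4% of genes had as few or fewer. The single E9.5 peak within 1 Mb, chr6:5904411-5906121, lay 908 kb upstream of Dlx6 with a score of 67.0 (rank 546, 26.3%). It fell in an intron of Dync1i1, which encodes a dynein intermediate chain and whose locus is known to hold limb enhancers of this pair. Whether this peak acts on Dlx5 or Dlx6 was not tested.

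Dlx3 (chr11:94981403-94986610, plus strand) and Dlx4 (chr11:95001770-95007577, minus strand) had 5 peaks within 100 kb, the most of the 5 loci, and all at E10.5. The peak chr11:94989044-94993173 lay between both genes, 9.71 kb from the 5′ end of Dlx3 and 16.47 kb from that of Dlx4, and filled 4130 bp of the segment of 15.16 kb. It was the only peak between the genes of any of the 3 pairs, and its score of 53.6 placed it at 70.0% of the list. On the far side of Dlx4 lay chr11:95046588-95050181, 40.81 kb upstream of Dlx4 (score 63.7, 40.7%), and chr11:95056621-95062748, 52.11 kb upstream (score 54.9, 65.0%). The remaining peaks, chr11:94912251-94916445 and chr11:94935152-94938859, had scores of 65.7 (36.5%) and 61.3 (46.6%). They lay 67.06 and 44.40 kb upstream of Dlx3, both in introns of Itga3, an integrin gene, and the latter was 1.11 kb from the 5′ end of Itga3 itself. The nearest genes of these peaks were Pdk2 and Itga3, so that 3 of the 5 peaks had Dlx3 or Dlx4 as the nearest gene.

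Peaks of the Dlx3 and Dlx4 locus were wide. They measured 3594 to 6128 bp, all above the E10.5 median of 2552 bp, and covered 21.76 kb in all. The other loci had 7.77 kb under peaks at Dlx5 and Dlx6, 5.71 kb at Msx2, 5.59 kb at Msx1 and 1.45 kb at Dlx1 and Dlx2. In contrast to their width, their scores were between 53.6 and 65.7 and thus near the E10.5 median of 59.8.

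Dlx1 (chr2:71366170-71372038, plus strand) and Dlx2 (chr2:71381466-71384811, minus strand) had the weakest peaks. The E10.5 peak chr2:71403681-71405128, 38.23 kb from the 5′ end of Dlx1 and 19.59 kb upstream of Dlx2, had a score of 35.3. It ranked 6084 of 6185, with 98.4% of the list at or above it. The E9.5 peak chr2:71466703-71468238 lay 82.66 kb upstream of Dlx2 and scored 45.7 (84.1% of the list). Its distance of 101.3 kb from the 5′ end of Dlx1 was just outside the limit, which is why Dlx1 counts as a gene without an E9.5 peak. With all annotated transcript starts, Dlx1 has this peak within 100 kb, and 3 of 8 genes have an E9.5 peak, beside 21.7% of all genes. The peaks of both stages lay in intergenic sequence on the same side of the pair and did not overlap. Both scores were below 50, a value under which 20.0% of E9.5 and 13.1% of E10.5 peaks fell.

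The ranks of all 16 peaks were then compared with their lists. At E9.5, 1 of 2 peaks was in the best 25%, that of Msx2. At E10.5, 0 of 14 were in the best 25%, 8 of 14 scored above the list median, and scores ran from 35.3 to 72.4 with a median of 61.4. Of these 14 peaks, 2 scored below 50, that at the Dlx6 5′ end and that of Dlx1 and Dlx2. The E10.5 peaks of these genes thus ranged from 26.1% to 98.4% of the list. In width, 8 of 14 were above the list median, with a range of 1418 to 6128 bp and a median of 3035 bp.

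**Figure D3:**
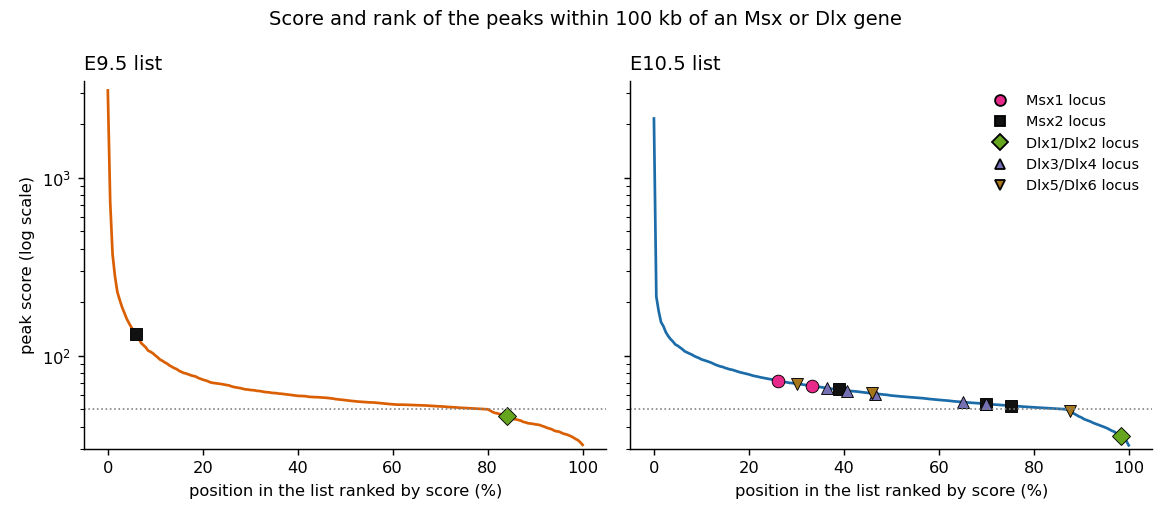
Peak score (log scale) against the position of a peak in its list, ranked from the highest score at 0% to the lowest at 100%, for E9.5 and E10.5. The line is the whole list, symbols are the peaks of each locus and the dotted line marks a score of 50; Msx2 stands at 5.84% at E9.5, while no symbol at E10.5 lies left of 26.1%.

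To describe how peaks were spread over the genes, peaks per gene window were counted. At E10.5, Dlx3 and Dlx4 had 5 peaks within 100 kb, and 2.28% of protein-coding genes had as many or more. Msx2, Dlx5 and Dlx6 had 3 peaks (12.4% of genes as many or more), Msx1 had 2 (26.8%) and Dlx1 and Dlx2 had 1 (52.9%). At E9.5, Msx2 and Dlx2 had 1 peak each, as 17.3% of genes did, and the other 6 genes had 0, as 79.5% did. The nearest protein-coding gene was an Msx or Dlx gene for 2 of 2 E9.5 peaks and for 9 of 14 E10.5 peaks.

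**Figure D4:**
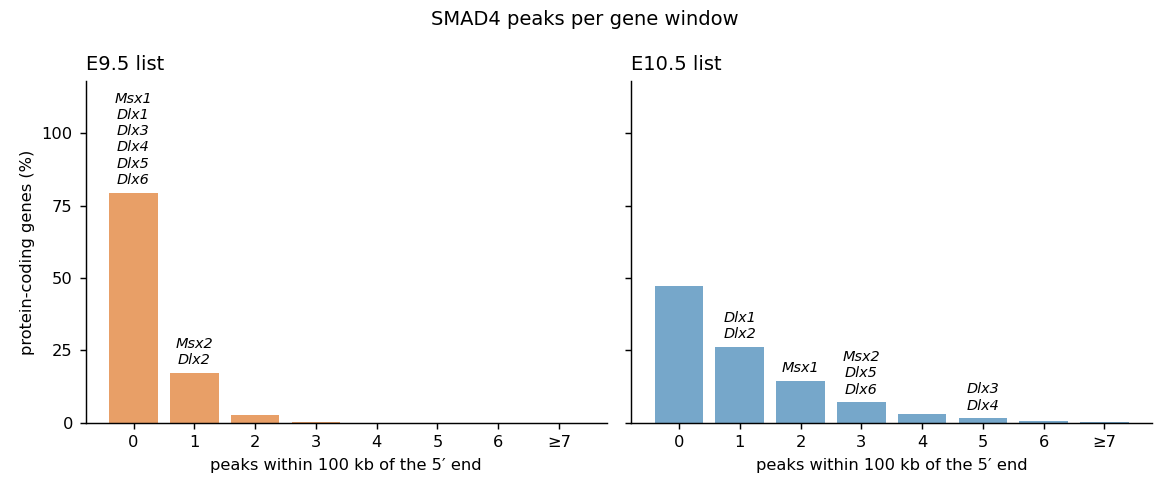
Share of 22380 protein-coding genes in percent (bars, from 0) by the number of peaks within 100 kb of the 5′ end, for each stage, with the names of the 8 genes above the bar they fall in. The names of 6 genes stand above 0 peaks at E9.5, while names spread at E10.5 from 1 peak (Dlx1, Dlx2) to 5 peaks (Dlx3, Dlx4).

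Within 1 Mb the loci differed in another way. Msx2 had 10 E9.5 peaks and 7 E10.5 peaks within 1 Mb, and it and the Dlx1 and Dlx2 pair, with 5 and 3, were the loci with more peaks in the shorter E9.5 list. The median gene had 2 E9.5 peaks within 1 Mb (quartiles 1 and 3). Among those of Msx2, 2 lay in introns of Ror2, which encodes a WNT receptor required for limb outgrowth, 342 and 347 kb downstream of Msx2, and had scores of 79.7 and 44.8. By 5′ end, Nfil3 was the nearest gene of both. Higher scores, apart from the peak next to Msx2, were found 857 kb upstream nearest to Cplx2 (98.2) and 729 kb upstream in an intron of Hrh2 (92.0). Msx1 had 4 and 10 peaks, and the Dlx3 and Dlx4 pair 7 and 16. All of these windows hold many other genes to which the peaks may belong.

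Within 1 Mb, 4 of 8 genes had a peak shared between stages, beside 34.3% of all genes. Msx1 had 2 regions shared between stages within 1 Mb, of which the nearer lay 211 kb downstream in an intron of Stk32b, a kinase gene. The E9.5 peak chr5:38004067-38005491 scored 34.5 there (98.3% of the list at or above) and the E10.5 peak chr5:38003808-38005454 scored 60.9 (47.5%). The farther region, at the 5′ end of Zfp518b, lay 860 kb upstream and ranked 27 of 2073 E9.5 peaks, and its E10.5 partner ranked 4628 of 6185. The Dlx3 and Dlx4 pair had 1 such region, 909 kb upstream of Dlx3 at the promoter of Tob1, and neither the Dlx1 and Dlx2 nor the Dlx5 and Dlx6 pair had any.

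The binding sequences were searched on both strands in the central 300 bp of each peak, since the lists give no summits. Of the 2 E9.5 peaks, GGAGCC was found in both (32.3% of all E9.5 peaks had it), GGCGCC in that of Msx2 (12.6%), and CAGAC, the SMAD box, in that of Dlx2 (60.6%). Neither held the longer box CAGACC (21.0%), which contains CAGAC. Of the 14 E10.5 peaks, 8 held CAGAC (53.2% of all E10.5 peaks), 1 held CAGACC (19.7%), 6 held GGAGCC (34.1%) and 2 held GGCGCC (13.1%), namely those of Msx2 and of the Dlx6 5′ end. None of the 16 peaks held GTCTAGAC in the central 300 bp (1.21% of E9.5 and 0.420% of E10.5 peaks). None held TAATTA, a core sequence bound by many homeodomain proteins, MSX and DLX among them (2.94% and 2.83%). Only this form of the core was searched for, so other forms were not counted. The shares for single boxes were thus of the same order as those of the lists, and a match describes letters and not a bound site.

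The middle of the Msx2 region held several GC-rich sites. In the central 300 bp of its E9.5 peak GGAGCC occurred 4 times, and 0.531% of E9.5 peaks, this peak included, had as many or more. GGCGCC occurred 2 times there (3.33% had as many or more). At E10.5, with the centre shifted by 105 bp, GGAGCC occurred 3 times (2.18% of peaks had as many or more) and GGCGCC 2 times (2.78%). The 4 GC-rich sites printed above fall in both windows. GC content goes along with such letters. The central 300 bp had a GC content of 71.0% in the E9.5 peak and 65.7% in the E10.5 peak, where the list medians were 53% and 55%. The whole E9.5 peak had 58.4%, above that of 83.0% of the list. Its part in the number of GC-rich sites was not tested.

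The arrangement of a GC-rich site with GTCT after 5 bases was rare. Over whole peaks it was found in 22 of 2073 E9.5 peaks (1.06%) and in 128 of 6185 E10.5 peaks (2.07%). Among the 16 peaks it was held by 4, both peaks of Msx2 at the same site, the E10.5 peak over Msx1 and the E9.5 peak upstream of Dlx2. In the central 300 bp it was found in 0 of 2 E9.5 peaks (0.241% of the list) and in 1 of 14 E10.5 peaks (0.291%), that of Msx2, as the site lies 208.5 bp from the centre of the E9.5 peak and 103.5 bp from that of the E10.5 peak. The match of Msx1 lies 639.5 bp and that of Dlx2 496.5 bp from the centre of its peak, both outside the central 300 bp. Wide and GC-rich peaks have more room for the arrangement. Peaks of like width (the narrower at least 0.8 times as wide) and within 3 points of the GC content were counted, the peak itself included. For Msx2 at E10.5, 10 of 424 such peaks (2.36%) held the arrangement, for Msx1 15 of 567 (2.65%) and for Dlx2 4 of 224 (1.79%). For Msx2 at E9.5 it was 1 of 71 (1.41%). That 1 is the Msx2 peak itself, so no other peak of its group held the arrangement. The matches numbered 4726 over chromosomes 1 to 19 and X (1.85 per Mb), 22 in all E9.5 peaks (7.09 per Mb) and 130 in all E10.5 peaks (6.62 per Mb). None of the 8 peaks at the Dlx3 and Dlx4 and the Dlx5 and Dlx6 loci held it.

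Over whole peaks the letters were frequent at both stages. CAGAC was in all 16 peaks (94.0% of E9.5 and 98.2% of E10.5 peaks), and CAGACC in 1 of 2 and 10 of 14 (58.2% and 79.5%). GGCGCC was in 2 of 2 and 5 of 14 (26.1% and 44.0%), and GGAGCC in 2 of 2 and 12 of 14 (67.8% and 88.4%). TAATTA was in 0 of 2 and 5 of 14 (19.6% and 30.6%), with 3 of these 5 at the Dlx3 and Dlx4 locus. GTCTAGAC was in 1 peak, that within Itga3 (3.62% of E10.5 peaks), 183 bp from its centre. CAGACC in the central 300 bp was found only in the peak 40.81 kb upstream of Dlx4, 2 bp from the centre.

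The base composition of the whole peaks varied among the loci. Peaks over or next to Msx1, Msx2, Dlx5 and the Dlx6 5′ end had a GC content of 55.7% to 58.4%, where the medians were 50.4% over the E9.5 list and 53.1% over the E10.5 list. The distal peak of Msx1 (49.6%), that upstream of Dlx6 (49.5%) and the E10.5 peak of Dlx1 and Dlx2 (47.9%) were below the E10.5 median, as were both peaks downstream of Msx2 (51.3% and 47.7%). Of the 5 peaks at the Dlx3 and Dlx4 locus, the one nearest to Pdk2 (50.4%) was below that median, and the others had 53.7%, 53.8%, 54.1% and 56.0%, the last within the range of the peaks at genes. The E9.5 peak upstream of Dlx2 (52.5%) was above the median of its list. The ratio of observed to expected CpG dinucleotides was 0.60 over Msx1, 0.58 at Dlx6, 0.56 and 0.52 at Msx2 and 0.53 in Dlx5. It was 0.54 in the E9.5 peak of Dlx2 and 0.18 to 0.49 in the wide peaks of the Dlx3 and Dlx4 locus, and the list medians were 0.27 and 0.30.

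**Figure D5:**
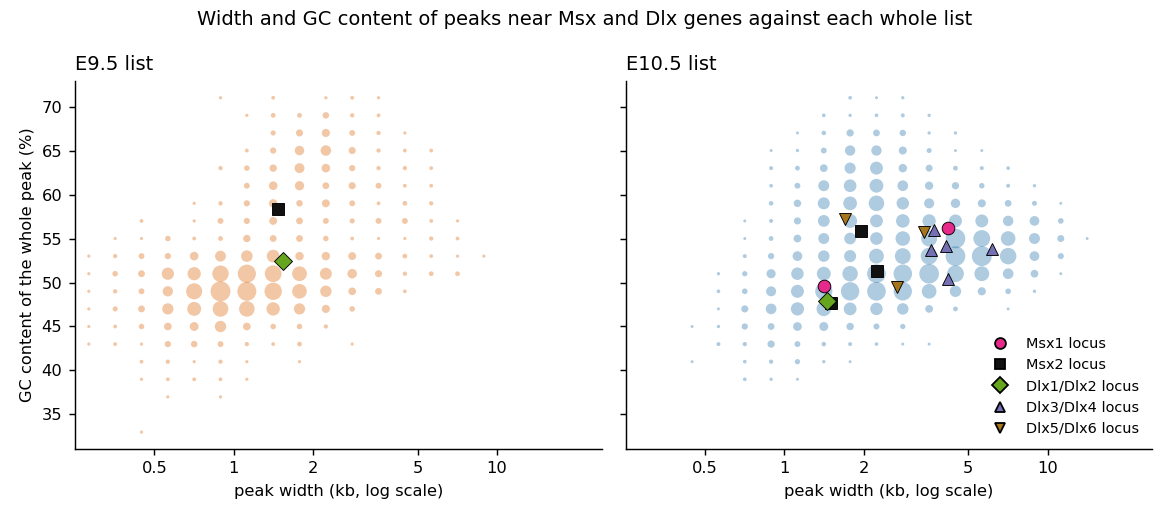
Peak width in kb (log scale) and GC content of the whole peak in percent, for E9.5 and E10.5. Circles are bins of the whole list, larger where they hold more peaks, and symbols are the peaks of each locus; the 5 peaks of the Dlx3 and Dlx4 locus lie among the wide peaks, and the Msx2 peak of E9.5 lies at a GC content of 58.4%.

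The promoters of the genes, from 250 bases before to 50 bases after the annotated 5′ end on mm9, were searched for the same letters. CAGACC was in 0 of 8 (16.4% of all protein-coding promoters), CAGAC in 2 of 8, those of Dlx2 and Dlx4 (48.5%), and GGAGCC in 4 of 8, those of Msx1, Dlx2, Dlx3 and Dlx4 (33.2%). GGCGCC was in that of Dlx2 (14.3%) and TAATTA in that of Msx2 (4.86%). None held GTCTAGAC (0.174%) or the GC-rich site followed by GTCT (0.228%). Their GC content ran from 40.7% at Msx2 to 70.0% at Msx1, around 55.0% for all promoters. The promoter of Msx2 was thus less GC-rich than its upstream peak, and it lay outside that peak at both stages.

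To place the 8 genes in the pathway, the same counts were made for related lists, which were also put together with earlier results of these data known. Of 9 BMP-response genes, 7 had a peak within 100 kb in the E9.5 list, 9 in the E10.5 list, and 7 (Id1, Id2, Id3, Id4, Smad6, Smad7 and Bambi) had one shared between stages. Of the 8 Msx and Dlx genes, 2, 8 and 1 did, so that Msx2 is the member that shares this feature with the Id genes, inhibitors of helix-loop-helix factors, and with the inhibitory SMADs. Of 8 genes for BMP signals and their reception, 2 did at E9.5, 4 at E10.5 and 1, the antagonist Grem1, a shared peak. Of 14 other homeobox genes of the NK-like class, 3, 8 and 0 did, and of 9 genes of the ectodermal ridge, 2, 6 and 0. Across the annotation of 22380 genes, the shares in the same order were 20.5%, 52.9% and 5.51%. The NK-like and ridge counts were of the same order as these shares. The differences between these lists were not tested.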

How the data were processed

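Per the labels and the study's methods, the authors aligned reads to mm9 with Bowtie 1.1.0, called peaks with MACS 1.4 against the input DNA and combined the replicates of a stage. Each of the 2 deposited peak lists holds the position of every peak and its score, which the authors gave without naming a unit. The study's methods state that a combined peak carries the best MACS p-value of its replicates. The values fit such a p-value on a logarithmic scale, with a step in number at 50, and were used only as a score for ranking within a list (rank 1 is the highest, ties share the mean rank). The input samples have no values here.

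Lists were read with Python 3.11.15, pandas 2.3.3 and NumPy 2.4.6 and drawn with Matplotlib 3.10.9, with 1-based mm9 coordinates and gene records of GENCODE vM1. Distances run from the peak centre to the 5′ end of the gene record, positive in the direction of transcription. Shared peaks overlap by at least 1 bp. Sequences are from the mm9 genome, searched on both strands by scripts tested on simulated data. As no replicate values exist, no tests were made and shares of all protein-coding genes or of all peaks stand beside each count. All 8 genes, all their peaks within 100 kb and, of the other lists, genes with a shared peak are named. The genes and lists were chosen with earlier results of these data known. Alternatives covered the distance, the annotated starts, score thresholds, list length, the definition of overlap, rank by width and the searched window. Stage and kind of sample (ChIP or input) were read from the sample titles. Protein sequences were not analysed here.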

Additional observations from a re-analysis of the deposited data

How the results depend on the processing

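The counts depended on the distance and the score. Genes with an E9.5 peak numbered 1 at 50 kb, 6 at 250 kb, 8 at 1 Mb, and 1 (Msx2) with a score of at least 100 or in the better-scored 50% of the list, and the E9.5 peaks 1, 9, 27, 1 and 1. The shares of all protein-coding genes were, in the same order, 11.4%, 40.6%, 78.3%, 3.03% and 12.4%. Genes with an E10.5 peak numbered 0 at a score of at least 100 and 3 with the list cut to the E9.5 length, beside 8.76% and 28.0% of all genes. The E10.5 peaks numbered 39 at 1 Mb, 0 at that score, 8 in the better-scored 50% and 3 in the cut list. Genes with a shared peak numbered 2 at 250 kb (12.0% of all genes), 4 at 1 Mb (34.3%), and 0 at that score (1.05%) and in the cut list (3.57%), where the E10.5 peak of Msx2 is no longer present. Counting from all annotated transcript starts raised the genes with an E9.5 peak from 2 to 3, by Dlx1, and left the other 4 counts as they were. Counting any base of a peak moved none of the 5 counts, and 3 other definitions of overlap left Msx2 as the 1 gene with a shared peak within 100 kb.

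When peaks were ranked by width, the best position was 25.1% for Msx1, close to the 26.1% by score, and moved for the other genes. It was 38.2% for Msx2 at E9.5 and 57.7% at E10.5, 36.1% for Dlx2 at E9.5, 83.7% for Dlx1 and Dlx2 at E10.5, 9.5% for Dlx3 and Dlx4, and 35.2% for Dlx5 and Dlx6. Ranked by score again but within 10 kb, the best position was 33.3% for Msx1, 46.0% for Dlx5 and 70.0% for Dlx3. In whole peaks instead of the central 300 bp, CAGACC was in 11 of 16 peaks, CAGAC in 16, GTCTAGAC in 1, GGCGCC in 7, GGAGCC in 14, the GC-rich site with GTCT in 4 and TAATTA in 5. Whole peaks are longer than 300 bp, and the share of the list rises with them. No paired analysis was possible because the replicates were combined before deposit. For the same reason no replicate could be left out. The unknown depth limits what the lack of a peak shows.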
